A study of Mus musculus with 3 samples.

Results

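The genes described here are Fas, Fadd, Casp8, Cflar, Casp9, Ripk1, Ripk3 and Xiap, which encode the Fas death receptor, its adaptor and initiator protease, the decoy of that protease, the initiator protease of the mitochondrial route, the main RIP kinases of cell death and a caspase inhibitor. They were taken by symbol from the deposited count table, and all 8 were found among its 44788 gene symbols. RNA had been sequenced from 3 libraries of T lymphocytes from the spleens of female Balb/c mice aged 6 to 8 weeks. A bead kit for CD90.2, the Thy1 molecule that mouse T cells carry on their surface, was used to isolate the cells, which were given LZ-8 for 15 h in medium that held 2% fetal bovine serum. LZ-8 is a protein of the medicinal mushroom Ganoderma lucidum and a mitogen for T cells. All 3 libraries belong to that one group, so the values are levels within treated cells and none is a response to LZ-8. Untreated cells were not analysed here. Whether the libraries came from separate mice or cultures is not stated, so SDs measure only the spread between these libraries, which may be technical. The p-values concern these libraries alone, and those of edgeR set their differences against counting noise.

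Fas is a surface receptor with an intracellular death domain. When its ligand binds, the adaptor FADD joins the receptor and gathers procaspase-8, which cleaves itself and then further caspases. cFLIP, the product of Cflar, resembles caspase-8 but cannot cut, and it sets how far caspase-8 is activated. The mitochondrial route instead uses cytochrome c and APAF1 to activate caspase-9, and XIAP binds and blocks caspase-9. RIPK1 acts downstream of TNF receptors, where ubiquitin chains on it favour survival signalling. Where caspase-8 is not active, RIPK1 and RIPK3 can join through a shared motif and drive necroptosis through MLKL. In T cells, Fas signalling is known for the removal of activated cells, and loss of Fas causes lymphoid overgrowth in mice.

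The difference between the proteases and their decoy can be read from the coding sequence around the catalytic cysteine. The stretches below were taken from GENCODE vM21 transcripts (GRCm38) in the direction of the messenger RNA, and capitals mark the cysteine codon, or in Cflar the codon at the same distance from the shared glutamine codon cag.
Casp8: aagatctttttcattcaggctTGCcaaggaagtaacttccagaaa
Casp9: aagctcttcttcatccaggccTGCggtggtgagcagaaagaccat
Cflar: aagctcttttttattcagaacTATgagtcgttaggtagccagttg
Both caspase genes carry TGC, a cysteine codon, at this place, and Cflar carries TAT, which is not one. The Casp8 stretch lies at chr1:58844598-58844642 and that of Cflar at chr1:58752602-58752646, each on the plus strand. The Casp9 stretch runs from chr4:141807232 to chr4:141811552 on the plus strand and is interrupted by an intron within these ends.

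RIPK1 and RIPK3 bind each other through the RIP homotypic interaction motif, and the next stretches show where the coding sequences of the 2 kinase genes hold it. Capitals mark the 4 codons of the motif's core.
Ripk1: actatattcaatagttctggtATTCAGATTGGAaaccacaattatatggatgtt
Ripk3: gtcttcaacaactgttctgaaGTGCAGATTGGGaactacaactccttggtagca
The Ripk1 stretch lies at chr13:34030057-34030110 on the plus strand and the Ripk3 stretch at chr14:55785284-55785337 on the minus strand.

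The libraries held 19041670, 12669690 and 14715992 counts in replicates 1, 2 and 3. A level is given in CPM, counts per 1000000 counts of the library. A comparison between genes is given in CPM per kilobase of exon unless CPM or reads are named. The 12 T cell markers summed to between 4683 and 4873 CPM, led by Cd6 at 993 ± 17.2 CPM (SD, n = 3). The 8 B cell markers summed to 18.4 to 21.2 CPM, the 10 monocyte and macrophage markers to 4.03 to 5.03 CPM, the 8 neutrophil markers to 0.158 to 0.680 CPM, the 8 NK cell markers to 27.6 to 31.5 CPM, the 6 dendritic cell markers to 9.72 to 11.8 CPM and the 6 erythroid markers to 2.31 to 2.63 CPM. A mean of 1 CPM was reached by 7 of the 8 B cell markers. Of the NK cell list 2 reached it, Eomes (17.5 ± 1.59 CPM) and Klrk1 (10.7 ± 0.154 CPM). Only Zbtb46 (9.49 ± 1.22 CPM) of the dendritic cell list and Cd68 (4.08 ± 0.406 CPM) of the macrophage list did so. Csf1r, C1qa, C1qc and Fcgr1 of the macrophage list had no read in any library, and neither did Elane, Retnlg and Cxcr2 of the neutrophil list, Klra8 and Klre1 of the NK cell list, Clec9a of the dendritic cell list, or Alas2 of the erythroid list. The part of such cells in the levels below was not tested. In bulk RNA, fewer cells with a transcript and less transcript per cell cannot be told apart.

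All 8 genes were detected in every library, with means from 18.0 to 242 CPM. Together they took 603 to 611 CPM, and Cflar alone made up 39.9 ± 0.320% of that sum (SD, n = 3). The median of the 8 genes was 54.0 CPM, beside 27.0 CPM for the 13500 genes that reached 1 CPM in at least 2 libraries, and all 8 passed that filter. Cflar stood above 94.2% of those genes in CPM, while Fadd and Casp9 stood above 41.5% and 41.6%. These places, like the share of the sum, are not scaled for length, and Cflar has the longest exons of the 8 (12.669 kb). Per kilobase of exon Cflar stood above 72.8%, Fadd above 35.3% and Casp9 above 28.9% of those genes with a known exon length.

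**Figure D1:**
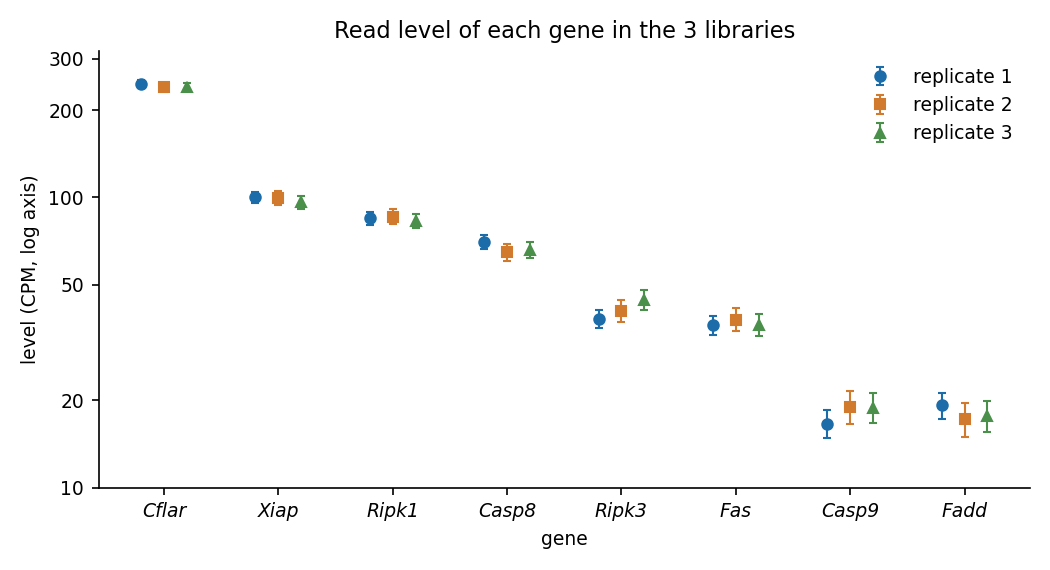
Level of each gene in CPM (vertical log axis) in replicates 1, 2 and 3 (circle, square, triangle), with exact Poisson 95% intervals that cover counting error only. Cflar lies near 240.0 CPM in each library, and the markers of one gene lie close together beside the distance between Cflar and Casp9 or Fadd.

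Fas, the receptor, lies on chromosome 19 at 34290666 to 34327772 (GRCm38, plus strand). It had 690, 481 and 536 reads in replicates 1, 2 and 3, or 36.2, 38.0 and 36.4 CPM, a mean of 36.9 ± 0.949 CPM (SD, n = 3). The 3 values lay within the counting interval of each library, for example up to 41.5 CPM in replicate 2. Fasl, the Fas ligand that activated T cells and NK cells make, had 74, 51 and 44 reads, or 3.89, 4.03 and 2.99 CPM. Receptor transcripts thus outnumbered ligand transcripts in each library, 9.53-fold per kilobase of exon at the mean log2 ratio of 3.25 ± 0.22 (SD, n = 3). With the length of the longest coding transcript in place of all annotated exons the difference was 13.3-fold, since Fas has exon sequence outside that transcript.

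Fadd, the adaptor gene, lies on chromosome 7 at 144577318 to 144582463 (minus strand) and has a single annotated transcript. It had 366, 218 and 260 reads, or 19.2, 17.2 and 17.7 CPM. Per kilobase of exon it was lower than the receptor in each library, 3.87-fold at the mean log2 ratio of Fadd to Fas of -1.95 ± 0.11 (SD, n = 3). Against the protease gene Casp8 it was 5.01-fold lower, with a log2 ratio of -2.33 ± 0.02 that was nearly the same in every library. That SD is smaller than the counting error of Fadd alone (6.10% of its level), so it cannot show a tightly held ratio.

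Casp8 and Cflar are neighbours on chromosome 1, with no protein-coding gene in the 36.5 kb between them. Casp8 (58795374 to 58847503, plus strand) had 1339, 820 and 973 reads, or 70.3, 64.7 and 66.1 CPM. Cflar (58711508 to 58758884, plus strand) had 4682, 3030 and 3532 reads, or 246, 239 and 240.0 CPM, the highest count of the 8 genes in every library. Cflar reads outnumbered Casp8 reads 3.61-fold, a log2 ratio of 1.85 ± 0.04 (SD, n = 3).

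The order of protease and decoy per length depended on which length was used. All annotated exons of Cflar come to 12.669 kb over 13 transcripts, of which 4 are coding, and the longest coding one has 6.572 kb, against 2.893 kb and 2.585 kb for Casp8. Over all exons the log2 ratio of Cflar to Casp8 was -0.33, -0.25 and -0.27 in replicates 1, 2 and 3, so Casp8 was slightly higher. Over the longest coding transcripts the mean turned to 0.50 ± 0.04, so Cflar was 1.42-fold higher. Which Cflar transcripts the cells made cannot be read from gene counts.

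Casp9, the initiator of the mitochondrial route, lies on chromosome 4 at 141793612 to 141815976 (plus strand). It had 316, 240 and 278 reads, or 16.6, 18.9 and 18.9 CPM. Replicate 1 was the lowest, and the counting intervals of the 3 libraries overlapped (its own reached 18.5 CPM). Per kilobase Casp8 exceeded Casp9 in each of the 3 libraries, 6.64-fold at the mean log2 ratio of 2.73 ± 0.17 (SD, n = 3). Apaf1, which forms the platform that activates caspase-9, stood at 63.6, 67.7 and 65.2 CPM, and per kilobase Casp9 was 2.08-fold below it (log2 ratio -1.06 ± 0.08).

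Xiap, the inhibitor, lies on the X chromosome at 42059679 to 42109656 (plus strand). It had 1907, 1262 and 1418 reads, or 100.1, 99.6 and 96.4 CPM. Per kilobase Xiap was above Casp9 in each library, 2.99-fold at the mean log2 ratio of 1.58 ± 0.13 (SD, n = 3). Among its relatives, Xiap was 1.27-fold below Birc2, which encodes the ubiquitin ligase cIAP1, per kilobase, with a log2 ratio of -0.34 ± 0.05, while in reads, without scaling for length, Xiap was 1.63-fold above Birc2. In the summed level per kilobase of Xiap, Birc2, Birc3, Birc5 and Birc6, Xiap took 13.5 ± 0.104% and Birc2 17.1 ± 0.658%. The largest shares of that sum were those of Birc3 (cIAP2) at 36.1 ± 0.146% and of the giant inhibitor gene Birc6 at 32.1 ± 0.818%, and the mitotic gene Birc5 (survivin) took 1.14 ± 0.0907%.

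Ripk1 lies on chromosome 13 at 34002363 to 34037147 (plus strand). It had 1613, 1087 and 1225 reads, or 84.7, 85.8 and 83.2 CPM. Its range after TMM scaling, 0.036 log2 units, was the smallest of the 8 genes but close to the 0.037 of Cflar. With unscaled library totals Cflar (0.040) was below Ripk1 (0.044). Ripk3, on chromosome 14 at 55784995 to 55788865 (minus strand), had 727, 514 and 653 reads, or 38.2, 40.6 and 44.4 CPM. Replicate 3 was the highest for Ripk3 and replicate 1 the lowest, and this range of 0.23 log2 units was the largest of the 8. Ripk1 had more reads, but its exons are longer. Per kilobase Ripk3 was above Ripk1 in each library, 1.76-fold at the mean log2 ratio of Ripk1 to Ripk3 of -0.82 ± 0.12 (SD, n = 3), while the log2 ratio of reads was 1.05.

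In the summed level per kilobase of Ripk1, Ripk2, Ripk3 and Ripk4, Ripk3 took 53.8 ± 2.08% and Ripk1 30.5 ± 1.45% (SD, n = 3). Mlkl, the gene of the membrane-breaking executor of necroptosis, had 38, 35 and 31 reads, or 2.00, 2.76 and 2.11 CPM. Ripk3 therefore exceeded Mlkl 17.9-fold per kilobase, with a log2 ratio of 4.16 ± 0.27 that was positive in 3 of 3 libraries. Zbp1, a nucleic acid sensor that can engage RIPK3, stood at 75.1, 82.2 and 76.0 CPM. The necroptosis genes were thus unequal, with sensor and kinase transcripts well above those of the executor.

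**Figure D2:**
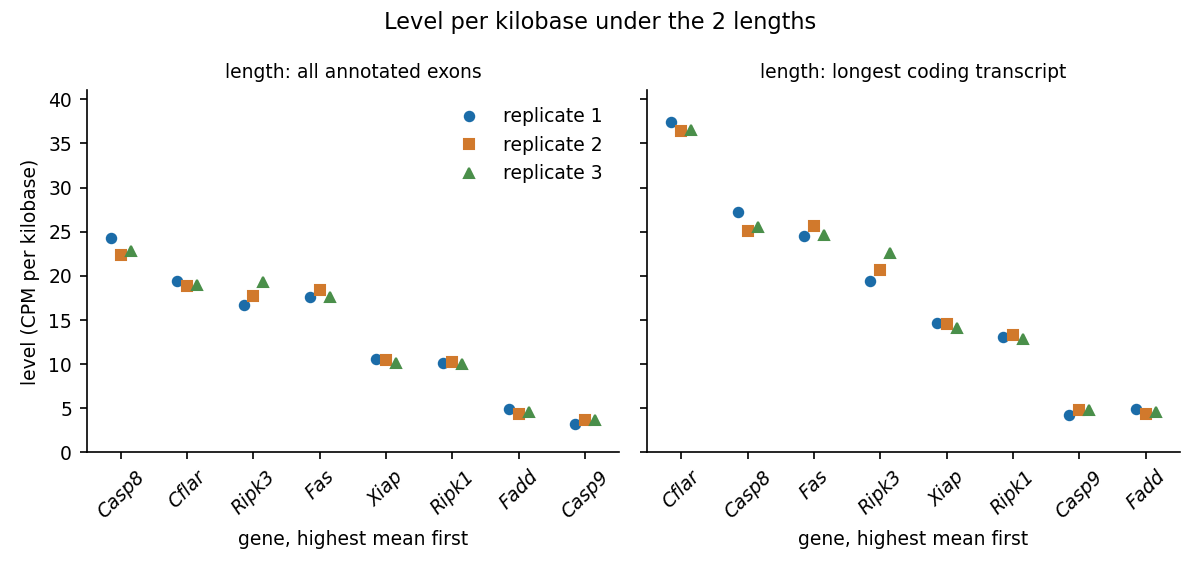
Level of the 8 genes in CPM per kilobase, over all annotated exons (left) and over the longest coding transcript (right), with 1 marker per library and genes ordered by mean. Casp8 leads on the left at 23.2 CPM per kilobase and Cflar on the right at 36.8, while Fadd and Casp9 are lowest on both.

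Ordered by level per kilobase of all exons, the genes ran Casp8 (23.2 ± 1.01 CPM per kilobase), Cflar (19.1 ± 0.289), Ripk3 (17.9 ± 1.36), Fas (17.9 ± 0.460), Xiap (10.4 ± 0.217), Ripk1 (10.1 ± 0.154), Fadd (4.62 ± 0.270) and Casp9 (3.49 ± 0.258; SD, n = 3). The ranges of Cflar and Ripk3, and of Ripk3 and Fas, overlapped, and their order differed between libraries, so these neighbours did not differ beyond their spread. The ranges of Xiap and Ripk1 overlapped too, but within each library Xiap was slightly higher (log2 difference 0.04 ± 0.02, SD, n = 3). The other neighbours in the order had ranges that did not overlap. By the longest coding transcript Cflar came first at 36.8 ± 0.557 CPM per kilobase, followed by Casp8 (25.9 ± 1.13), Fas (24.9 ± 0.640) and Ripk3 (20.9 ± 1.59). Casp8 overlapped Fas on that scale, and Casp9 (4.66 ± 0.344) overlapped Fadd.

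Of the 8 genes, 0 differed between the libraries beyond counting noise at an adjusted p under 0.05 (edgeR, likelihood-ratio test at a dispersion of 0), against 13.7% of the 13500 genes tested. That test compares these libraries, not conditions. At an unadjusted p under 0.05 there was 1 gene, Ripk3 (edgeR adjusted p = 0.0805). With DESeq2's size factors in the same test the counts were again 0 of 8 at an adjusted and 1 of 8 at an unadjusted p under 0.05 (Ripk3, edgeR adjusted p = 0.0812). Between replicates 1 and 3 alone, with replicate 2 left out, Ripk3 passed (edgeR adjusted p = 0.0442) as the only one of the 8, while 9.03% of all tested genes were called. Between replicates 1 and 2, and between 2 and 3, 0 of the 8 genes passed, against 5.61% and 8.48% of all tested genes. The next lowest adjusted p were those of Casp8 (0.361) and Casp9 (0.371). The share called depended on the level, with 11.6% among genes of 10 to 100 CPM and 32.5% among those of 100 to 1000 CPM. The median range of the 8 genes was 0.09 log2 units, beside 0.17 for all genes tested. All genes tested include many of lower level, where counting noise is larger. Among the 9134 genes at 10 CPM or more in every library, as all 8 were, the median range was 0.13.

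Each of the 12 ratios per kilobase had the same sign in all 3 libraries. A two-sided exact sign-flip permutation test over the libraries gave p = 0.25 (also adjusted over the 12 pairs) for each, which is the smallest p that 3 libraries allow. None could therefore reach 0.05. The remaining pairs were Ripk1 to Fadd (log2 ratio 1.13 ± 0.09) and Casp8 to Ripk3 (0.37 ± 0.16).

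**Figure D3:**
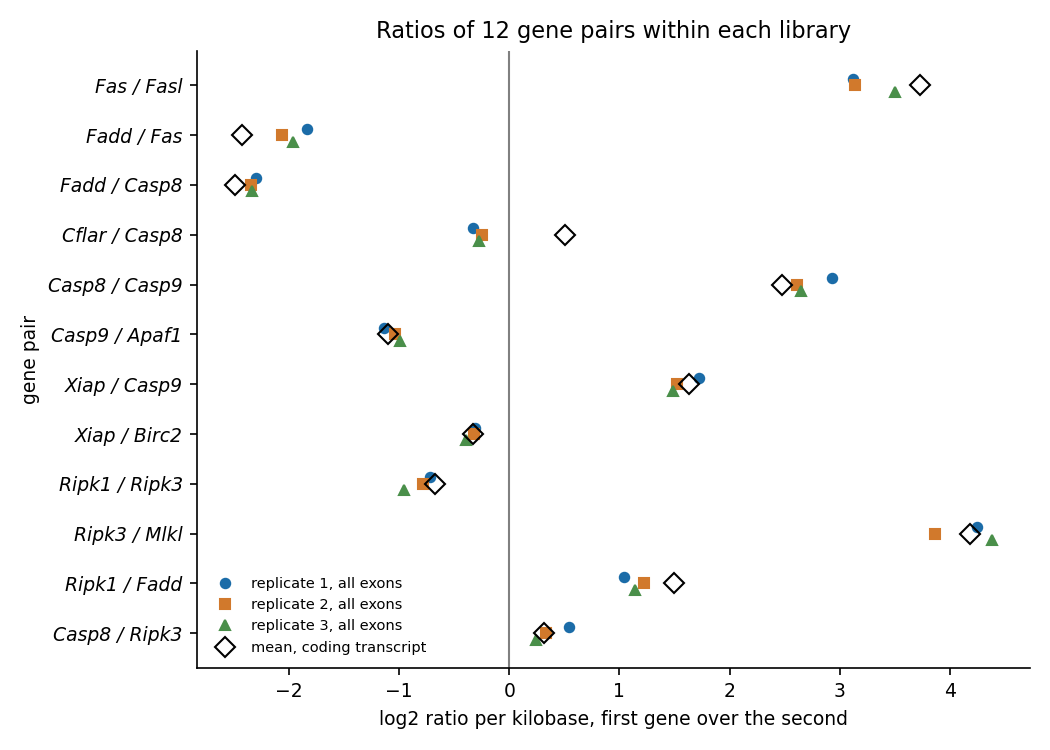
Log2 ratio per kilobase of 12 gene pairs (horizontal axis, first gene over the second) in each library over all exons (filled markers), with the mean over the longest coding transcripts (open diamonds). Ripk3 to Mlkl and Fas to Fasl lie farthest to the right, and for Cflar to Casp8 the markers and the diamond lie on opposite sides of 0.

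The partners of the 8 genes were described by 7 lists with 87 genes. Of these, 78 entered the test between libraries and 14 (17.9%) varied, against 13.7% of all tested genes. The share called depends on level (11.6% at 10 to 100 CPM, 32.5% at 100 to 1000 CPM). No share matched to the levels of the lists was computed, so these counts do not show excess variation. Of the 16 death receptor, ligand and adaptor genes, 15 were at 1 CPM or more and 2 varied, Tnfrsf23 and the death domain receptor gene Tnfrsf25 (this pair, like the other genes named below only as varying, was chosen after its values were seen). The highest were the TNF receptor gene Tnfrsf1b (128 ± 5.81 CPM, SD, n = 3) and Daxx (109 ± 3.93 CPM), which encodes a Fas-binding and chromatin protein. Next came the receptor gene Tnfrsf26 (72.9 ± 0.652 CPM) and the ligand gene Lta (46.8 ± 2.03 CPM). Tnfrsf21 (3.31 ± 0.994 CPM) and Faim2, with no read, were the lowest. Here and in the lists below, highest and lowest refer to CPM without scaling for length unless a kilobase is named. A count of 0 allows up to 0.158, 0.237 and 0.204 CPM in replicates 1, 2 and 3.

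Of 6 other caspase genes, 4 reached 1 CPM and 1 of them, Casp2 (70.2 ± 7.31 CPM), varied between the libraries (edgeR adjusted p = 0.000852). Casp6 was at 18.4 ± 1.43 CPM, and the inflammatory caspase genes Casp4 and Casp1 were at 9.56 ± 0.972 and 7.57 ± 0.517 CPM (SD, n = 3). Casp12 and Casp14, a caspase of the epidermis, had no read.

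All 9 genes of the apoptosome and mitochondrial list were above 1 CPM and 1 varied, Cycs, the cytochrome c gene (22.4 ± 3.58 CPM, edgeR adjusted p = 0.00779), which shares 29.4% of its 31-mers with other genes. In CPM the pore-forming genes Bax (132 ± 5.07 CPM) and Bak1 (77.5 ± 1.84 CPM) led. They were followed by Apaf1 and by Diablo (56.8 ± 3.22 CPM), whose product frees caspases from XIAP, and Endog was lowest at 8.25 ± 1.54 CPM. Per kilobase of exon Bax and Bak1 also led, but the order below them changed. Apaf1 (7.25 ± 0.231 CPM per kilobase) had a lower mean than Diablo (9.21 ± 0.523) and Endog (7.76 ± 1.45), and Cycs was lowest (6.59 ± 1.05). Of the 12 IAP and IAP-associated genes 7 reached 1 CPM and 1 varied, Birc6 (640 ± 33.3 CPM, edgeR adjusted p = 4.9e-09). Birc3 stood at 140 ± 3.62 CPM, Birc2 at 60.6 ± 0.630 CPM and Usp11 at 19.5 ± 0.248 CPM. Naip5 (2, 0 and 0 reads) and Birc7 (0, 0 and 1 read) were nearly silent.

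Without scaling for length, the ubiquitin and kinase regulators of the RIPK1 complex had a median of 101 CPM, above those of the 6 other partner lists. All 22 were above 10 CPM. Ikbke (416 ± 13.3 CPM), Rbck1 (284 ± 7.85 CPM, a subunit of the linear ubiquitin ligase), Tnfaip3 (226 ± 7.91 CPM, the ubiquitin editor A20) and Mapkapk2 (211 ± 16.0 CPM), a kinase that phosphorylates RIPK1, were highest. The lowest were Tab3 (25.2 ± 2.57 CPM) and Tnip2 (30.7 ± 2.26 CPM), and 5 of the 22 varied, namely Ikbke, Mapkapk2, Tnip1, Rnf31 and Spata2. The 9 necroptosis and other RIP kinase genes had a median of 35.1 CPM and 1 of them varied, Stub1 (129 ± 11.5 CPM), a ubiquitin ligase gene, ahead of Zbp1, Ppm1b (64.3 ± 3.46 CPM) and Pgam5 (58.1 ± 0.143 CPM). Ripk4 was lowest, at 1.71 ± 0.249 CPM. Of the 13 caspase substrate genes 12 were above 1 CPM and 3 varied (Rock1, Gsdmd and Sptan1), with Sptan1 (580 ± 13.7 CPM), Acin1 (461 ± 12.1 CPM), Pak2 (277 ± 4.44 CPM) and Parp1 (230 ± 5.52 CPM) highest. Lmna (2.28 ± 0.701 CPM) and the gasdermin E gene, listed as Dfna5 (2, 1 and 1 reads), were lowest.

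**Figure D4:**
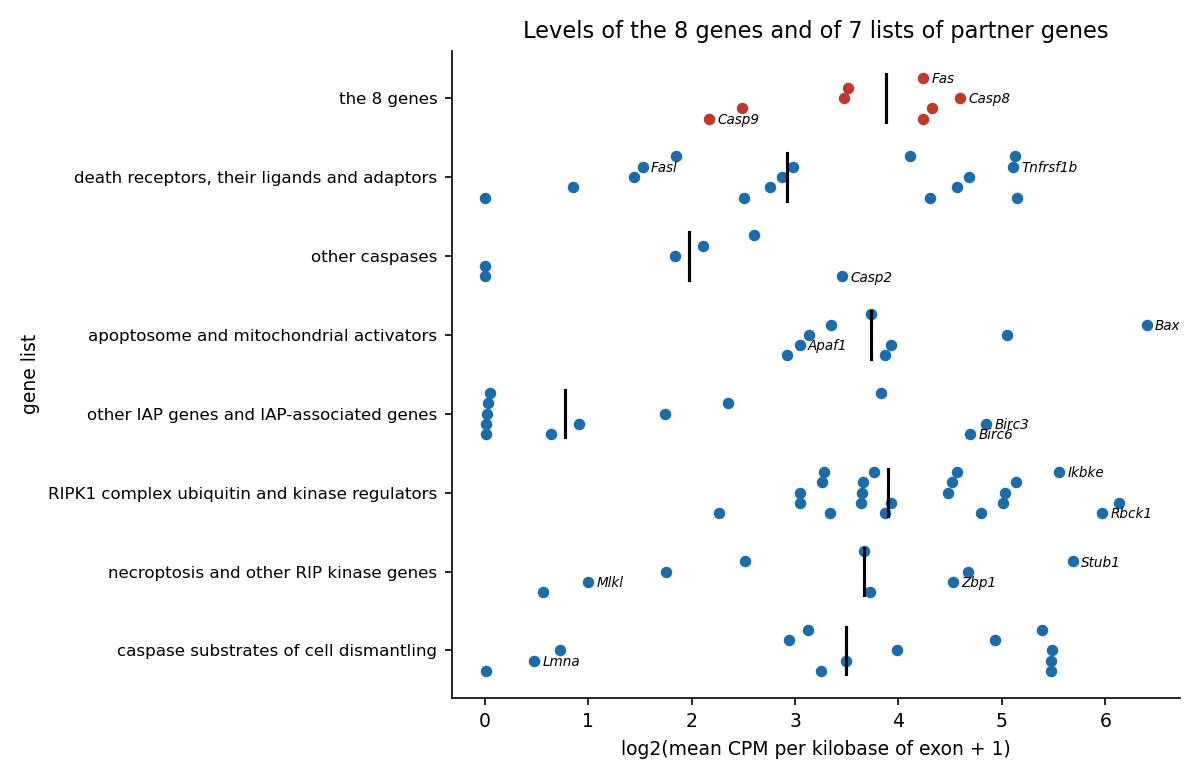
Mean level of the 8 genes (red) and of the 87 partner genes by list (blue), as log2 of CPM per kilobase of exon plus 1, with the median of each list as a black bar. Mlkl and Fasl lie in the lower part of their lists, and the IAP list runs from 0 up to Birc3.

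Sequence shared with other genes was small for the 8 genes, from 0% of the 31-mers of Ripk3 to 9.40% of those of Cflar. The gene that shared most with Cflar was Gm9845, an annotated processed pseudogene, with 4.46% of Cflar's 31-mers. Gm9845 stood at 42.4 ± 2.41 CPM (SD, n = 3), so reads of Cflar and Gm9845 may have been divided between them. Casp8 shared most with Gm20257, an annotated pseudogene with 8.02% of Casp8's 31-mers and a level of 3.92 ± 0.730 CPM. Reads of Casp8 and Gm20257 may likewise have been divided. Exons of Ripk1 overlap those of Gm17084, an annotated processed pseudogene, on the same strand over 6.12% of their length, and the level of Gm17084 was not analysed here. They also overlap those of Serpinb6a (9.45 ± 0.903 CPM) on the opposite strand over 2.89% of their length, and the use of strand in counting is not given in the sources used here. Exons of Casp9 overlap Cela2a, with no read, and Ctrc (2, 1 and 0 reads) over 1.81% each. Fadd overlaps the antisense gene Faddos over 6.12% of its exons. Some partner genes named above shared more of their 31-mers than Cycs (29.4%). These were Pgam5 (58.8%), Naip5 (53.1%), Diablo (39.6%), Stub1 (37.0%) and Endog (34.1%), so their reads too may have been divided between genes.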

How the data were processed

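The authors deposited raw read counts per gene symbol, 1 column per library, taken as unnormalized since all values are whole and the column totals differ. The genome build mm10 is named per the submitters' processing notes whereas the aligner, counter, annotation and strand setting were not given in the sources used here. CPM used the column total of each library. Exon lengths, positions and shared 31-mers were taken from GENCODE vM21, whose assembly GRCm38 is that of mm10. Genes that reached 1 CPM in 2 or more libraries were compared between libraries in edgeR 4.0.16 (TMM scaling, dispersion fixed at 0, likelihood-ratio test with Benjamini-Hochberg adjusted p); with 1 group no contrast of conditions exists. Tested on simulated Poisson counts of 13361 genes, it found 81 of 100 genes with a 1.5-fold change and 86 of 100 with a 2-fold change, beside 8 false calls. Ratios had 0.5 added to each count. Intervals and zero-count limits (3 counts) cover counting error only. Named were the 8 genes, those of 12 pairs, the 4 highest and 2 lowest of each partner list and the top and silent markers. Genes that overlap a member or share its sequence, and Ripk2 in its family sum, are also named. Patterns of likeness were not computed, since 3 libraries of 1 group have none. Of the planned genes and pairs, some are not reported here. Members and lists were chosen with earlier results of these data known. Of the list symbols, 4 were found under an older name. Alternatives covered DESeq2 1.42.0 size factors, filters, lengths, denominators and each library left out, with R 4.3.3 and Python 3.11.15.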

Additional observations from a re-analysis of the deposited data

How the results depend on the processing

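No paired analysis was possible because there is only 1 group. The count of genes varying between libraries, 1847, was 742 to 1193 with a library left out, where fewer libraries enter the test, and stayed within 1.5 times under the other settings. Of the calls for the 8 genes, 55 of 56 alternatives left the side of the threshold as it was, and Ripk3 passed without replicate 2 (adjusted p 0.0442, against 0.0669 to 0.627 under its other alternatives). Of 72 alternatives for the ratios, 68 kept the sign. Cflar to Casp8 turned to 0.50 with the longest coding transcript and to 1.85 with no length scaling. With no length scaling Xiap to Birc2 turned to 0.70 and Ripk1 to Ripk3 to 1.05. With protein-coding counts as the denominator all 8 levels were 1.16 times higher.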
